A study of Rattus norvegicus with 20 samples.

Results

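The genes most enriched in the brain were followed in a rat model of stress cardiomyopathy (SCM), a reversible failure of heart contraction brought on by emotional or physical stress. RNA sequencing was available for 20 libraries, 1 from the brain and 1 from the left ventricle of each of 10 rats. All rats were male Sprague-Dawley, an outbred stock. Immobilization of 6 hours, over 7 days, was applied to the 5 SCM rats and not to the 5 control rats. The rats carried no transgene or other allele named in the labels, and their age, the part of the brain taken and whether the libraries shared a preparation day are not given in the sources used here.

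The genes were chosen from the control rats alone. Counts were divided by the library total and scaled to a total of 1000000 (CPM). Of 24160 features in the table, 23760 carry Ensembl rat identifiers, and 10480 of these had a mean of 10 CPM or more in the control brain. They were ranked by the log2 ratio of mean control brain to mean control left ventricle CPM, each with 0.5 CPM added, and the top 200 were taken. Of these, 8 identifiers were set aside by the rule and are not analysed here, which left 192 genes. The deposited table holds identifiers and no gene names, and 0 of the 192 identifiers were paired with a symbol by the RefSeq gene table used here. For that reason no gene is named by symbol, only a few are given by identifier, and the brain and heart labels could not be checked against defining marker genes.

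Brain and heart share the genes that every cell needs and differ in those that serve a specialised task. Transcripts that are abundant in brain and almost missing from heart muscle generally come from neurons and glia. As a class they are known for proteins of transmitter release at the synapse, transmitter receptors, ion channels that carry the nerve impulse, the neuronal cytoskeleton, and the myelin and support functions of glia. Which of these functions the 192 identifiers serve was not analysed here. A piece of whole brain is a mixture, so a lower level can mean fewer cells of a type or less RNA per cell, and bulk counts cannot tell the 2 apart.

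All values in this paragraph were used to choose the genes and are a description. Mean control brain levels ran from 100.5 to 2108 CPM with a median of 262. In the control left ventricle the same genes had a median of 0.132 CPM and a highest mean of 3.80 CPM. The log2 ratio ran from 7.53 to 11.16 with a median of 8.41. The 2 genes just inside the limit had ratios of 7.53 and 7.53, and the 2 features just outside it had 7.52 and 7.52. The limit of 10 CPM decided no place, since the lowest chosen gene was at 100.5 CPM. The upper quartile of the ventricle levels was 0.386 CPM, below the 0.5 CPM that was added. In the control left ventricle 7 genes had 0 counts in all 5 libraries, and 46 had 3 counts or fewer in every library. Taking 3 counts over the group of 5 libraries as the smallest level the depth can show, 0.0191 CPM, those 7 genes were at least 7237-fold higher in the brain, and the bound for the highest of them was at least 21366-fold.

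They took 7.00% ± 0.157 (SD, n = 5) of all counts in control brains, and the SCM brains gave 7.03% ± 0.251 (SD, n = 5). Control brain libraries 1 to 5 gave 6.87%, 7.08%, 7.10%, 7.14% and 6.79%. SCM brain libraries 1 to 5 gave 7.08%, 6.82%, 6.78%, 7.07% and 7.41%. The SCM range enclosed the control range, and the means differed by less than either SD. In control left ventricles they took 0.00763% ± 0.00072 (SD, n = 5), and in SCM ventricles 0.00688% ± 0.000595 (SD, n = 5). Their summed level in single ventricle libraries ran from 65.2 to 84.7 CPM in controls and from 63.2 to 78.4 CPM in SCM rats, so the groups overlapped. The brain libraries held 22386526 to 35988591 counts and the left ventricle libraries 25390349 to 36251990. The lowest count of any of the 192 genes in any brain library was 741, so counting error was small in the brain, while 45 to 70 of the 192 genes had no count in a given ventricle library.

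The 5 SCM rats played no part in the choice, so they show whether the enrichment recurred in other animals. Across the SCM rats the median log2 ratio was 8.48, against 8.41 in controls, and it ran from 6.41 to 10.99. Of the 192 genes, 177 ranked in the top 200 when the ranking was made from the SCM libraries, and the lowest place of any was 455. In SCM rats 12 genes had a ratio under the lowest value in controls. Within single rats, comparing each brain with the ventricle of the same animal, the median ratio lay between 8.43 and 8.58 in the control rats and between 8.52 and 8.61 in the SCM rats. The control values were fixed in large part by the choice of genes. In each of the 5 SCM rats all 192 genes had a ratio over 5, and the lowest single value was 5.32.

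**Figure D1:**
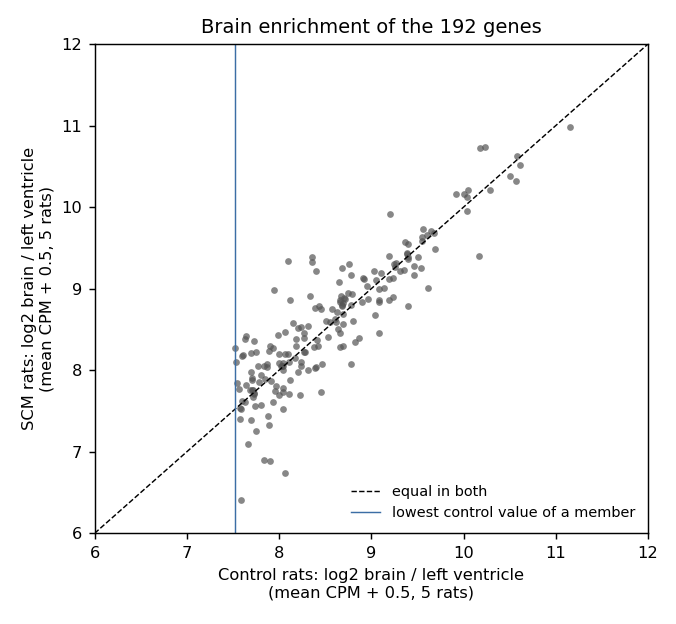
Each point is 1 of the 192 genes, with the log2 ratio of mean brain to mean left ventricle CPM (0.5 CPM added to each) in 5 control rats on the x axis and in 5 SCM rats on the y axis. Points lie along the dashed line of equality, and those near the left edge, where the blue line marks the lowest control ratio of 7.53, scatter below as well as above it, down to 6.41.

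Some brain libraries stood apart from the rest. Each gene was set against its own mean over the 10 brain libraries, as log2 of TMM-normalized CPM plus 0.5. TMM normalization scales libraries by their typical gene. The first principal component of these deviations held 63.3% of the variance of the 192 genes and the second 19.5%. Control libraries 1 and 5 and SCM library 3 lay at the negative end of the first component, at -0.33, -0.27 and -0.27. The other control libraries were at 0.076, 0.092 and 0.13, and the other SCM libraries ran from 0.030 to 0.22. The 3 libraries that stood apart therefore came from both groups. They were picked out on the 192 genes themselves, so the counts that follow had to be high. These 3 libraries were the 3 lowest of all 10 for 55 of the 192 genes (28.6%) and the 3 highest for 8 genes (4.17%). Over all 16002 features tested in the brain the shares were 6.37% and 4.36%. Among the 2074 other features that were at least as high in the control brain as the lowest of the 192, they were 16.3% and 2.65%. These shares are descriptions, and whether the 192 genes differ from other features in this respect was not tested. In the 55 genes the median log2 fold change, SCM against control, was 0.14, against 0.034 over all 192. Their median standard error was 0.13, against 0.091 in the other 137 genes. What set the 3 libraries apart was not tested either, and their total counts, 25892951, 30912557 and 26515855, lay inside the range of the others.

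SCM library 2 stood apart in another way, with deviations that were wide in both directions. The SD of its deviations over the 192 genes was 0.35, against 0.13 to 0.28 in the other SCM libraries and 0.15 to 0.33 in the controls. It held the highest of the 10 values for 59 genes (30.7%) and the lowest for 49 (25.5%). Among the other features of at least the same level it did so for 39.2% and 26.2%, and the SD of its deviations there was 0.31, so these traits were not limited to the 192 genes. The rat-to-rat range of a single gene over the 10 brain libraries had a median of 0.58 on the log2 scale and was widest at 3.02, or 8.10-fold. In 26 of the 192 genes (13.5%) it exceeded 2-fold, against 5.88% of the other features of at least the same level and 28.4% of all features tested. The median SD of log2 levels was 0.14 among control brains and 0.19 among SCM brains, and 133 of the 192 genes (69.3%) had the larger SD in the SCM group, against 65.8% of all features and 75.6% of the others of at least the same level. Other features of at least the same level had median SDs of 0.090 and 0.15.

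**Figure D2:**
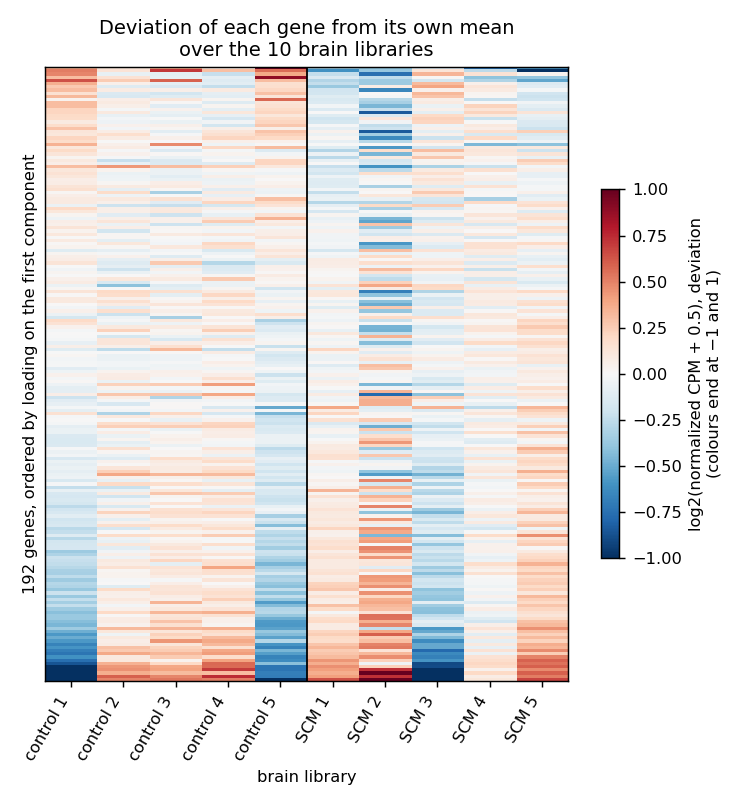
Rows are the 192 genes in order of their loading on the first component, columns are the 5 control and 5 SCM brain libraries, and colour is the deviation of log2(normalized CPM + 0.5) from the gene's mean over the 10 libraries. Control 1, control 5 and SCM 3 share a blue block at the bottom where the other libraries are red, and SCM 2 alternates between red and blue.

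The comparison of SCM with control brain asked whether immobilization changed the transcripts that set the brain apart. None of the 192 genes changed past the limit of an adjusted p-value under 0.05 (0 of 192; quasi-likelihood test of edgeR, Benjamini-Hochberg adjustment over 16002 features). The background for that call was 0.175% of all features tested. With an absolute log2 fold change over 2 added, the count was 0 of 192, and the background was 0%. All 192 genes had enough counts to be tested. The same genes gave 25 unadjusted p-values under 0.05 (13%, background 14.3%). By other tools, 5 of the 192 genes had an adjusted p-value under 0.05 with DESeq2, which called 370 of 22283 features (1.66%), and 1 with limma-voom, which called 29 of 16002 (0.181%). All of these genes were lower in SCM. The smallest adjusted p-value by edgeR was 0.0525. The control brain libraries entered both the choice of genes and this test, and a gene whose control level was high by chance was more likely to be chosen.

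At an unadjusted p-value under 0.05, 8 genes were higher in SCM (4.17%, background 6.9%) and 17 were lower (8.85%, background 7.44%). Among the 2074 other features of at least the same level, 9.16% were higher and 6.22% were lower. The higher share of the 192 genes lay under both backgrounds and the lower share over both. Differences between these shares were not tested, so neither count is read as a result about these genes. Log2 fold changes of the 17 lower genes ran from -0.96 to -0.15 with a median of -0.33, and those of the 8 higher genes from 0.17 to 0.24 with a median of 0.22. A log2 fold change below -0.5 was found for 5 genes (2.60%) and one above 0.5 for 0 genes. Over all features the shares were 4.66% and 4.04%, and over the other features of at least the same level 0.241% and 0.193%. Single libraries moved these counts. Without SCM library 3, 25 genes were higher, where 8.98% of all features were, and 3 had an adjusted p-value under 0.05. That fit called 112 of 16182 features in all, against 28 of 16002 with every library. Without control library 4 the count past the adjusted limit was 1, with 17 of 16147 features called. The number of higher genes was 4 without control library 1 or control library 2, 5 without control library 5 or SCM library 5, 3 without SCM library 2 and 13 without SCM library 4, while the share of all features that were higher stayed between 5.43% and 6.97% in these fits. The number of lower genes was 11 without control library 1, where 5.88% of all features were lower. Without control libraries 1 and 5 and SCM library 3 together, an alternative added after the data were seen, 4 genes were higher and 14 lower at an unadjusted p-value under 0.05 (5.49% and 6.73% of all features), and 0 passed the adjusted limit.

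Across all 192 genes the log2 fold change had a median of 0.034, with quartiles at -0.081 and 0.12 and extremes at -0.96 and 0.49. The median over all features tested was 0.0031, and over the 2074 other features of at least the same brain level it was 0.033. A log2 fold change above 0 was found for 113 genes (58.9%), where the background was 50.5% of all features and the features of at least the same level stood at 59.3%. The median of the 192 genes was 0.0089 without SCM library 5, 0.016 without control library 5 and 0.058 without SCM library 3. Without control libraries 1 and 5 and SCM library 3 together it was 0.012. The median standard error of a single gene was 0.10. The 95% interval of a gene reached a median of 0.22 to each side on the log2 scale. It lay wholly between -0.5 and 0.5 for 153 of the 192 genes (79.7%), against 57.2% of all features and 90.8% of the others of at least the same level. It lay wholly between -1 and 1 for 188 (97.9%), against 83.3% and 99.4%. The intervals were taken gene by gene, with no adjustment for their number.

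**Figure D3:**
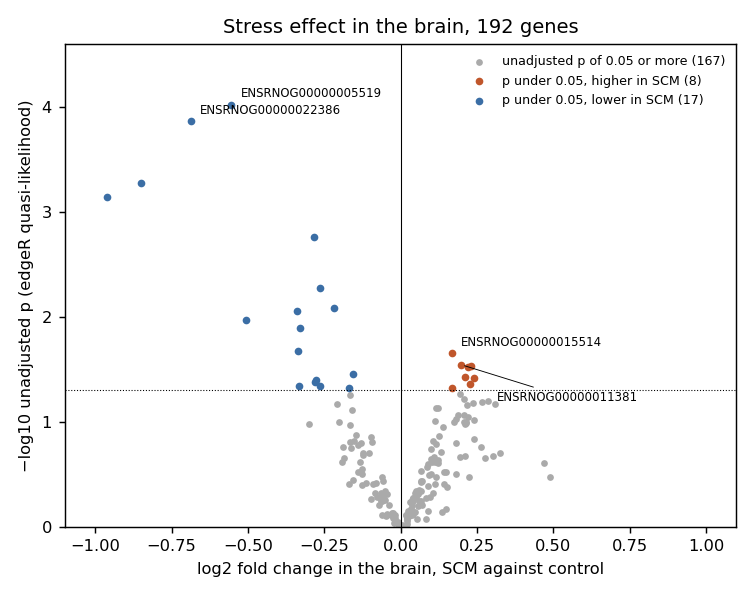
Each of the 192 genes is placed by its log2 fold change in the brain, SCM against control (x axis), and by −log10 of its unadjusted edgeR p-value (y axis), with a dotted line at the 0.05 limit. The 17 blue points at the left reach -0.96, while the 8 orange points at the right end at 0.24.

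The effect was also set out by strength of enrichment. The 64 highest-ranked genes had a median log2 fold change of 0.062, the next 64 had 0.034 and the last 64 had 0.019. Genes lower in SCM at an unadjusted p-value under 0.05 numbered 5, 6 and 6 in that order (7.81%, 9.38% and 9.38%, against 7.44% of all features), and higher genes numbered 4, 3 and 1 (6.25%, 4.69% and 1.56%, against 6.9%). The 17 lower genes ranked from 5 to 193 and the 8 higher genes from 44 to 180. By level, 6 of the 96 genes above the median brain CPM were lower in SCM and 6 were higher (6.25% each), and among the 96 at or below it 11 were lower (11.5%) and 2 were higher (2.08%). Differences between these subsets were not tested. When the genes were chosen by the same rule from the SCM libraries instead, 177 genes were shared (92.2% of the 192 and 92.7% of the 191 so chosen), the median log2 fold change was 0.039, and 9 genes were higher (4.71%) and 12 lower (6.28%), both under the shares of all features.

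Among the 192 genes, 6 had every SCM brain library below every control brain library (background 1.77%) and 1 had every SCM library above every control library (background 2.08%). All 6 had an unadjusted p-value under 0.05, and their log2 fold changes ran from -0.96 to -0.22. The following 4 identifiers are the 2 lower and the 2 higher genes with the smallest p-values.

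ENSRNOG00000005519, ranked 185 of the 200 in enrichment, had the smallest p-value. Its normalized level in control brains 1 to 5 was 102, 112, 103, 97.9 and 88.9 CPM. In SCM brains 1 to 5 it was 70.3, 54.6, 66.3, 71.0 and 81.0 CPM. The highest SCM brain lay below the lowest control brain, and neither group had a library that stood alone. The means were 101 ± 8.46 and 68.7 ± 9.54 CPM (SD, n = 5 each). The difference was -0.55 on the log2 scale (SE 0.099, 95% interval -0.77 to -0.34). Its adjusted p-value was 0.0525 by edgeR, just over the limit, and from 0.000184 to 0.224 over the alternatives (edgeR, DESeq2 and limma). In the left ventricle it had 0 or 1 count per library and could not be tested.

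ENSRNOG00000022386 ranked 98 in enrichment. Its control brains 1 to 5 were at 213, 162, 205, 124 and 169 CPM, and its SCM brains 1 to 5 at 111, 106, 120, 110 and 95.1 CPM. The groups did not overlap, although control library 4 came close to SCM library 3, and the controls were spread far more widely than the SCM rats. The means were 175 ± 35.6 and 109 ± 9.11 CPM (SD, n = 5 each). The difference was -0.69 on the log2 scale (SE 0.13, 95% interval -0.96 to -0.41), and edgeR's adjusted p-value was 0.0703, with a range from 0.000135 to 0.177 over the alternatives. The left ventricle again held 0 or 1 count per library.

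ENSRNOG00000015514 was the gene with the smallest p-value among those higher in SCM, and one of the most abundant of the 192. Control brains 1 to 5 were at 1781, 1886, 1892, 1941 and 1815 CPM, and SCM brains 1 to 5 at 2098, 2278, 1950, 1976 and 2174 CPM. Every SCM brain was above every control brain. The means were 1863 ± 64.0 and 2095 ± 137 CPM (SD, n = 5 each). Their difference on the log2 scale was 0.17 (SE 0.065, edgeR adjusted p-value 0.274). In the left ventricle it had 56 to 180 counts per library, with means of 2.84 ± 0.773 CPM in controls and 3.70 ± 2.22 CPM in SCM rats (SD, n = 5 each). There the log2 difference was 0.37 (SE 0.34, edgeR adjusted p-value 0.550). SCM ventricle 1 stood alone at 7.59 CPM, and without it the difference turned to -0.060 (edgeR adjusted p-value 0.921).

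ENSRNOG00000011381 was second among the higher genes. Control brains 1 to 5 were at 248, 271, 222, 280 and 292 CPM and SCM brains 1 to 5 at 276, 322, 315, 300.4 and 293 CPM. The groups overlapped, since SCM library 1 lay below control libraries 4 and 5. The means were 263 ± 27.9 and 301 ± 17.9 CPM (SD, n = 5 each), and the log2 difference was 0.20 (SE 0.080, edgeR adjusted p-value 0.293).

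**Figure D4:**
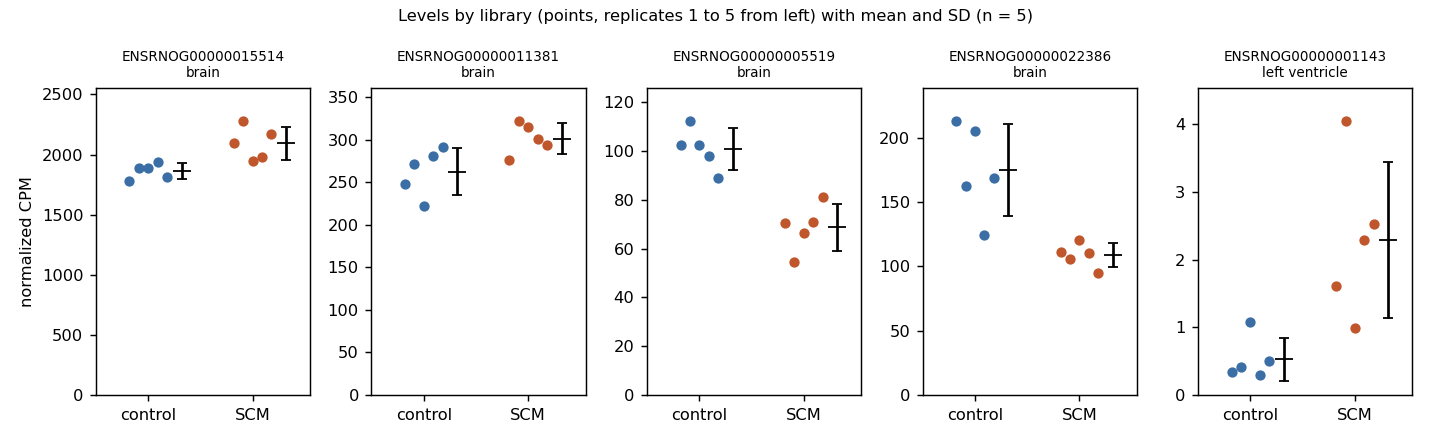
Normalized CPM of 5 genes in control (blue) and SCM (orange) libraries, with 1 point per library and the mean and SD (n = 5) beside them; the first 4 panels show the brain and the last the left ventricle. The brain differences are at most 0.69 on the log2 scale, and the ventricle gene lies under 4.1 CPM in every library.

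Only traces of these genes were read in the left ventricle, and 51 of the 192 had enough counts there to be tested for the effect of stress. A gene could pass that filter through one group alone, so the counts among the 51 describe them and support nothing about the whole list. With an adjusted p-value under 0.05, 1 gene rose and 0 fell (background 5.21% of 13954 features in either direction, edgeR). That gene also passed the fold change limit (background 0.229%). At an unadjusted p-value under 0.05, 3 were higher (background 10.9%) and 5 were lower (background 12.3%), 8 in either direction (background 23.2%). A log2 fold change above 0 was found for 17 of the 51 (background 48.4%). In 0 of the 51 was every SCM ventricle above every control (background 3.62%) or below (background 3.98%). A ventricle fold change was far less certain than one in the brain, with a median standard error of 0.50 among the 51 genes.

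The gene that rose in the left ventricle was ENSRNOG00000001143, ranked 134 in brain enrichment. It was named after its value was seen. The control ventricle libraries helped to choose the 192 genes for a low level there, which favours a rise in this comparison. Control ventricles 1 to 5 were at 0.346, 0.414, 1.08, 0.288 and 0.506 CPM, and SCM ventricles 1 to 5 at 1.60, 4.05, 0.985, 2.30 and 2.53 CPM. Control library 3 and SCM library 3 overlapped, and the other 4 SCM libraries were above all controls. The means were 0.526 ± 0.318 and 2.29 ± 1.15 CPM (SD, n = 5 each), which rest on 9 to 104 counts per library. It rose by 2.12 on the log2 scale (SE 0.46, 95% interval 1.11 to 3.12, edgeR adjusted p-value 0.0253). In the brain the groups overlapped throughout. Control brains 1 to 5 were at 147, 341, 309, 399 and 201 CPM and SCM brains 1 to 5 at 346, 261, 143, 309 and 391 CPM. The 3 lowest of the 10 were control libraries 1 and 5 and SCM library 3, the libraries at the end of the first component. The brain difference was 0.055 on the log2 scale (SE 0.28, edgeR adjusted p-value 0.947). The call in the ventricle was lost without control library 1 or 2 or SCM library 2, 4 or 5, and with the replicate number as a block. These fits called 2.04% to 3.91% of all features. The highest edgeR adjusted p-value over all alternatives was 0.0781, in the fit with that block.

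A last fit took brain and ventricle together, with each rat as its own block, and tested whether the 2 tissues responded differently. The control brain and control ventricle values that chose the genes both enter this fit, so its values are given as a description. None of the 192 genes had an adjusted p-value under 0.05 (background 0.754% of 16720 features, edgeR), and 26 had an unadjusted p-value under 0.05 (13.5%, where all features gave 13.9%). The smallest adjusted p-value was 0.0506, for ENSRNOG00000001143, whose effect was 1.98 higher in the ventricle on the log2 scale (standard error 0.41). With the ventricle near 0 counts for most of the 192 genes, the median standard error of the interaction was 0.82 against 0.24 over all features. The count past the adjusted limit was 1 without control rat 4 (0.552% of all features) and 3 without control rat 5 (1.29%).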

How the data were processed

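The authors deposited 1 table of raw read counts per Ensembl rat gene for 20 libraries. The submitters' processing notes name HISAT2, StringTie, SAMtools and the rat build mRatBN7.2. Versions, strand setting and counting rule are not given in the sources used here, so reads of near-identical or overlapping genes may be split. Rows without an Ensembl rat identifier stayed in the library totals and tests but could not be chosen. Replicates are separate rats per the labels. Counts were tested in R 4.3.3 with edgeR 4.0.16 (TMM, filterByExpr with a minimum count of 10, quasi-likelihood F-test), the brain, the ventricle and their interaction each in its own fit, with Benjamini-Hochberg adjustment over all features tested. DESeq2 1.42.0 and limma 3.58.1 were alternatives, as were other scalings, filters, leave-one-out fits, a replicate block and other choices of genes. Figures and descriptions used Python 3.11.15. The fits were also run on simulated counts, but the outcome is not given here and no result rests on it.

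The genes, lists and tests were chosen with earlier results of these data known. Genes given by identifier are the 2 lower and 2 higher in the brain with the smallest p-values, and the 1 that passed in the ventricle. Lists of genes by role and by cell type, and promoter motifs, had been set out but need gene symbols, and are not analysed here.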

Additional observations from a re-analysis of the deposited data

Results flagged for a closer look

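Dixon's criterion was applied to 20 sets of 5 libraries, 14 of them levels of genes given by identifier in a tissue where the gene could be tested and 6 of them summed levels or median deviations of the 192 genes. A library lay far from the other 4 in 2 sets, where chance gives about 1 in 20. ENSRNOG00000015514 was at 7.59 CPM in SCM left ventricle library 1, and at 2.18 to 3.17 CPM in the other SCM ventricles. ENSRNOG00000001143 reached 1.08 CPM in the ventricle of control rat 3, while the other control ventricles lay at 0.288 to 0.506 CPM. Another 6 ventricle sets, of genes with too few counts to be tested there, were left out after their values were seen. Of those, 4 were past the criterion, on 1 count in a single library for 3 of them and on 0 to 12 counts per library for ENSRNOG00000011381 in SCM ventricles.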

How the results depend on the processing

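With an adjusted p-value under 0.05 in the brain, the count of 0 genes by edgeR became 1 with upper-quartile scaling (0.181% of all features called), 5 with DESeq2 (1.66%), 1 with limma-voom (0.181%), 2 with no filter on low counts (0.116%), 1 where each library needed 10 counts or more (0.197%) and 1 with a fit of all 20 libraries (0.167%). It was 0 to 3 when 1 library was left out (0.0247% to 0.692%). The higher genes at an unadjusted p-value under 0.05, 8 in the report, numbered 1 in the fit of all 20 libraries (5.34% of all features higher), 4 without control libraries 1 and 5 and SCM library 3 (5.49%), and 3 to 25 with 1 library left out (5.43% to 8.98%). The lower genes, 17 in the report, numbered 9 in the fit of all 20 libraries (4.69%, against 4.01% of all features), 7 among the 94 genes of the top 100 (7.45%, against 7.44%), and 11 to 21 with 1 library left out (5.88% to 9.71% of all features). In the ventricle the count of 1 became 0 to 2 with 1 library left out (2.04% to 7.07% of all features called). The interaction count of 0 became 3 without the rat block (1.70%) and 0 to 3 with 1 rat left out (0.0593% to 1.29%). The causes were not tested. A replicate block left 0 genes past the adjusted limit in the brain (0.0937% of all features) and 1 higher at an unadjusted p-value under 0.05 (5.03%), and 0 in the ventricle (2.25%). Replicate numbers join different animals, and deviations of same-numbered brains correlated at -0.184 to 0.131. Those correlations are a description, and whether the numbers mark a shared preparation was not tested. The brain log2 fold changes of 4 genes and the ventricle one of ENSRNOG00000001143 kept their direction in every alternative run. The ventricle value of ENSRNOG00000015514, with alternatives added after the data were seen, ran from -0.060 to 0.52 with 1 library left out, and was below 0 only without SCM library 1. Ranking with 5 CPM added shared 152 genes. Ventricle results are limited by depth, since 141 of the 192 genes had too few counts there to be tested.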
